A study of Mus musculus with 38 samples.

Results

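Chemokine ligand genes were followed in mouse cells of the Tcf21 lineage, a lineage of progenitor cells in fat marked by the transcription factor Tcf21. All rows of the 2 expression tables with a symbol of Ccl or Cxcl and a number, together with Cx3cl1, Xcl1 and Pf4, were taken, without regard to their values. This gave 46 rows of 25746, with 40 symbols. Of these rows 39 lay on chromosomes, 12 of them on chromosome 5 and 12 on chromosome 11, and 7 lay on unplaced scaffolds. A level of at least 1 TPM (transcript abundance per gene length, scaled within each library) in at least 2 libraries was asked for before a gene was tested, and 36 of the 46 rows met it. The other 10 rows stayed at or below 4.15 TPM in every library, and 3 of them (Cxcl15, Ccl26 and the scaffold copy of Ccl19) were listed at 0 throughout.

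RNA-seq was made from 29 libraries of 5000 sorted cells each, and ATAC-seq, which tags open chromatin, from 9 libraries. The wild-type (WT) groups for RNA were postnatal day 12 (P12, 2 libraries), 3 weeks of age (3W, 7 libraries), 1 week of high-fat diet (1W HFD, 4 libraries), 12 weeks of high-fat diet (12W HFD, 5 libraries) and 6 months of age on regular diet (6M, 2 libraries). The knockout (KO) groups were 3W (5 libraries), 1W HFD (2 libraries) and 12W HFD (2 libraries). High-fat diet began at 6 weeks of age, and P12, 3W and 6M mice had regular diet. Per the labels, tamoxifen was given to switch on MerCreMer, a Cre recombinase that the drug activates, in WT and KO alike. Both a neonatal and an adult dosing are listed for every sample, and the age at dosing is not given for each group. Whether all groups were dosed at the same age is therefore unknown. The labels call the knockout Tcf21 KO, but the promoter that drives MerCreMer, the alleles and what the knockout removes are not stated there. HFD groups differ from 3W and 6M in age and diet together, so the effects of age and diet cannot be told apart, and cells of the same ages on regular diet were not analysed here. The labels do not say that libraries of a group came from separate animals, so p-values measure the spread between libraries, which may be technical.

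Chemokines are small secreted proteins that steer leukocytes through G protein-coupled receptors. They are named CC, CXC, CX3C or XC after the spacing of cysteines near the protein's start, and classes differ in the cells they attract: neutrophils by CXC ligands that carry an ELR motif, monocytes by the MCP ligands, eosinophils by eotaxins, activated T cells by interferon-inducible CXC ligands. In adipose tissue both stromal progenitors and macrophages make chemokines, and Ccl2 is the member best known for bringing monocytes into obese fat.

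The promoters of the 4 members that passed the test in the most comparisons are printed first (Ccl8 in 6 of 12 comparisons, Ccl6 in 5, Ccl9 in 5 and Pf4 in 4). Pf4 shared its count of 4 with Cxcl2, Ccl11, Cx3cl1 and Ccl4 and was taken for its smallest adjusted p. Each is the 250 bases before the RefSeq transcription start on GRCm38.p6 (mm10), read 5′ to 3′ on the gene's strand. Capitals mark a match on either strand to the kB motif (GGG, any 2 bases, TT, any base, CC), the AP-1 motif TGANTCA, the interferon motif (GAAA, any 2 bases, GAAA), the PU.1 motif GAGGAAGT, the C/EBP motif TTGCNNAA or the TATA box TATAAA. The first lies at chr11:82114935-82115184 (+), the next at chr11:83593088-83593337 (-), the third at chr11:83578637-83578886 (-) and the last at chr5:90772185-90772434 (+).
Ccl8: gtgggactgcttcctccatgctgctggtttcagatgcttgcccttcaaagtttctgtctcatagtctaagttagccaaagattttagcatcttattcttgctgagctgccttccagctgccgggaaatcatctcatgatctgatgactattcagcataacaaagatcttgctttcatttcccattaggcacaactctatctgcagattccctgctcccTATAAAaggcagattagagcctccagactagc
Ccl6: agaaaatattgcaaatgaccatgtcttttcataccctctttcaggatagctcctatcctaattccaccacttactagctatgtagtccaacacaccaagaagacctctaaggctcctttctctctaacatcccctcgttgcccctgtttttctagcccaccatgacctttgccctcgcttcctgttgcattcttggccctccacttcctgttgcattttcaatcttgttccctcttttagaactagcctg
Ccl9: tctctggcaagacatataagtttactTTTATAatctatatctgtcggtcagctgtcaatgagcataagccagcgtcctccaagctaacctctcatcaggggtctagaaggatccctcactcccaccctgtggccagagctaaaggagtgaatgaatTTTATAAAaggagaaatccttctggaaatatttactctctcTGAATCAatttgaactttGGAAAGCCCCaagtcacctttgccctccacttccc
Pf4: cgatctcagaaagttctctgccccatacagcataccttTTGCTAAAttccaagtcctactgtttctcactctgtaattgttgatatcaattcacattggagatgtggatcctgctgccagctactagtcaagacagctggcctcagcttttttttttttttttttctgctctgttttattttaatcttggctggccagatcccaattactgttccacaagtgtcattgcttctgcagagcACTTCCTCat
The Ccl8 window held a TATA box at position -32 from the start and no other motif of the 6. The Ccl6 window held none of them. The Ccl9 window held a kB match, an AP-1 match and TATA matches on both strands, some of which overlap. Matches in the Pf4 window were 1 to the C/EBP motif and 1 to the PU.1 motif. No motif of the 6 was found in all 4 windows.

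Stretches from 3 further promoters are shown because they carry kB matches, the motif bound by the NF-kB transcription factors. They were chosen after values were seen, and show the 110 bases before the start, with kB, AP-1 and TATA matches in capitals, at chr5:90891135-90891244 (+) for Cxcl1, chr5:90903789-90903898 (+) for Cxcl2 and chr5:92348890-92348999 (-) for Cxcl10.
Cxcl1: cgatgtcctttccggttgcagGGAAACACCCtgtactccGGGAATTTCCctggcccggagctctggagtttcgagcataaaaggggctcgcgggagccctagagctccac
Cxcl2: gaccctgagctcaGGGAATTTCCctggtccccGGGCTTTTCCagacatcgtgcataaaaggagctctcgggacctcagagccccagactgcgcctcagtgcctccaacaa
Cxcl10: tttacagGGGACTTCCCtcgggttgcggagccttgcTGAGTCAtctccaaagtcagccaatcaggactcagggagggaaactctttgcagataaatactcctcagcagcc
Of the 40 symbols, 27 had a RefSeq promoter entry at the same place as the table's gene. In the window from 250 bases before to 50 after the start, the kB motif was found in 8 of these 27 (29.6%), against 5.48% of the 27025 genes with an entry. It was found in Cxcl1, Cxcl2, Cxcl3, Cxcl9, Cxcl10, Ccl9, Ccl19 and Ccl20. The TATA box was found in 10 of 27 (37.0% against 15.7% of all genes) and AP-1 in 6 of 27 (22.2% against 8.97%). The C/EBP motif was in 5 of 27 (18.5% against 12.2%), the interferon motif in 3 of 27 (11.1% against 3.99%) and PU.1 in 1 of 27 (3.70% against 3.69%). The E-box CANNTG, the kind of site that basic helix-loop-helix factors such as Tcf21 bind, was in 22 of 27 (81.5% against 75.0%). A match describes the letters only.

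Groups were taken from sample titles, because the labels' genotype field differed from the title in 22 of 38 samples. With its order reversed over the samples, that field matched the titles of all 38. The Tcf21 level was 64.9 TPM ± 27.0 (SD, n = 7) in WT 3W and 35.2 ± 18.3 (SD, n = 5) in KO 3W, and these groups overlapped, with 37.6 to 109 TPM in WT and 20.01 to 60.9 TPM in KO. The difference did not pass after adjustment over all genes (log2 change -0.91 ± 0.35 (SE), limma unadjusted p = 0.0163, limma adjusted p = 1). With this overlap, the level of the targeted gene at 3W did not separate the genotypes library by library. The difference did not pass in 1W HFD (-0.71 ± 0.52, limma unadjusted p = 0.184, adjusted p = 1) or 12W HFD (-1.26 ± 0.51, limma unadjusted p = 0.0194, adjusted p = 1) either. Each change was towards lower values in KO. In 12W HFD the KO libraries held 1.64 and 5.67 TPM and the WT libraries 5.86 to 13.5 TPM. Within WT, Tcf21 fell to a mean of 9.37 TPM in 12W HFD and 3.89 TPM in 6M. Genes at 1 TPM or more numbered 10894 to 12825 in each library. Markers of fibroblast-type progenitors (Pdgfra, Dcn and Col1a1 among them) were present in all groups. Some libraries stood apart in markers of other cells or states. WT 6M replicate 1 held 9985 TPM of lymphocyte markers (67.9 TPM in replicate 2). KO 3W replicate 1 held 770 TPM of macrophage markers (177 to 344 in the other 4) and 7287 TPM of dissociation and immediate early genes (23489 to 33206 in the other 4). WT 12W HFD replicate 1 held 3493 TPM of interferon response genes (582 to 1102 in the other 4). KO 3W replicate 3 held 193 TPM of lymphocyte markers (11.9 to 40.1 in the other 4) and 1512 TPM of interferon response genes (581 to 770 in the other 4). WT 3W replicate 2 held 2374 TPM of pericyte markers (107 to 641 in the other 6), and KO 1W HFD replicate 1 held 413 TPM of lymphocyte markers (18.9 TPM in replicate 2).

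Many chemokine ligands rose from WT 3W cells to older WT cells, on either diet. Changes are given as log2 change of TPM + 1 from limma fitted over all 29 libraries, a scale that understates changes of low genes, and a gene was called at an adjusted p under 0.05. Against WT 3W, 18 of the 36 tested members rose and 1 fell in 12W HFD, where 14.2% of all 15659 tested genes changed (7.94% rose and 6.23% fell). In 6M, 14 rose and 1 fell (10.8% of all genes changed, 4% up and 6.85% down). In 1W HFD, 9 rose and 2 fell (8.03% of all genes changed, 4.78% up and 3.25% down). The members' median log2 change was 1.44 in 12W HFD, 0.95 in 6M and 0.45 in 1W HFD, beside medians over all genes of -0.04, -0.24 and 0.02. The 18 include Ccl22, which met the level filter only through the 12W HFD libraries. These comparisons share the 7 WT 3W libraries. The all-gene median in 6M moved from -0.24 to -0.03 when libraries were scaled by median ratios.

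Of the called members, those whose libraries did not overlap between groups numbered 10 of 19 in 12W HFD, 14 of 15 in 6M and 7 of 11 in 1W HFD. Over all called genes the shares without overlap were 49.9%, 84.3% and 55.9%. From 1W to 12W HFD, 9 members, Ccl22 again among them, rose and none fell (5.93% of all genes changed, 3.54% up and 2.39% down), with a members' median of 0.73 beside -0.05 over all genes. Between 12W HFD and 6M no member passed limma's threshold (0.881% of all genes did), and 7 of 36 had an unadjusted p under 0.05 (14% of all genes). Between P12 and 3W none passed (1.63% of all genes did), again with 7 of 36 at an unadjusted p under 0.05 (14.2% of all genes). In KO cells 13 members rose from 3W to 12W HFD and none fell (5.15% of all genes changed, 3.19% up and 1.96% down), with a members' median of 1.37 beside -0.05. None of the 13 overlapped between groups, and 98.3% of all called genes in that comparison did not either. From KO 3W to KO 1W HFD, 1 member rose (0.862% of all genes changed, 0.428% up), and from KO 1W to 12W HFD 2 members rose and none fell (0.76% changed, 0.492% up and 0.268% down).

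The counts of small groups moved in fits with 1 library left out. Such fits also have less power, and their shares over all genes are not given here. Some lost calls kept their size and others shrank. Without KO 12W HFD replicate 2 the KO change of Ccl8 from 3W was 4.12 in place of 4.18, and that of Cxcl16 was 0.64 in place of 1.18. Without WT 6M replicate 1 the 6M change of Ccl2 was 2.60 in place of 2.79, and that of Ccl3 was 1.36 in place of 2.40. The 1W HFD count of 11 fell to 6 without WT 1W HFD replicate 2 or 3, and to 7 without WT 1W HFD replicate 1 or 4 or WT 3W replicate 3 or 6. The calls that held in every fit tried were 14 of 19 for 12W HFD, 7 of 15 for 6M and 5 of 11 for 1W HFD. The 14 include Ccl22, which met the level filter only through the 12W HFD libraries. In 12W HFD the calls lost in at least 1 fit were those of Ccl7, Ccl17, Cxcl5, Cxcl10 and Cxcl14. That of Cxcl14 was lost only in the fit that joined libraries by replicate number (limma adjusted p = 0.0674). In 6M Ccl5, Ccl6, Ccl8, Ccl9, Ccl11, Ccl12 and Pf4 held in every fit, and in 1W HFD Ccl6, Ccl8, Ccl11, Ccl27a and Pf4. From 1W to 12W HFD Ccl3, Ccl6, Ccl9, Cxcl2 and Cx3cl1 held.

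**Figure D1:**
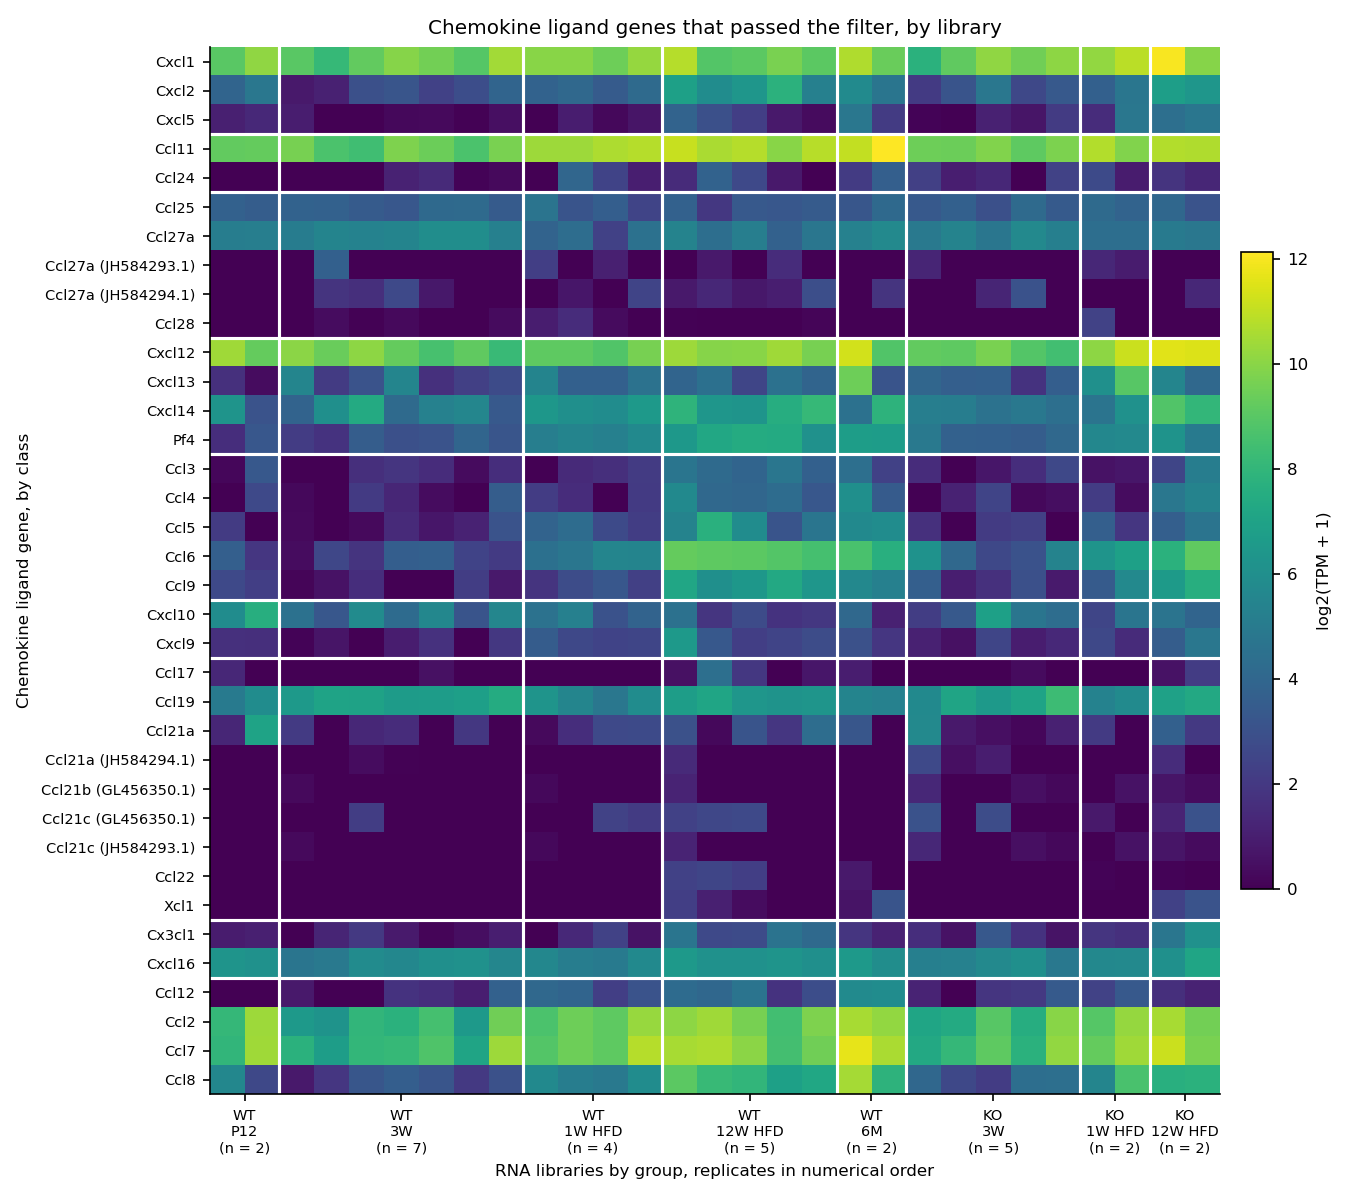
Heat map of log2(TPM + 1) for the 36 tested chemokine rows (vertical, by class) in the 29 RNA libraries (horizontal, by genotype and stage), with white lines between groups and classes. Cxcl1, Cxcl12, Ccl2, Ccl7 and Ccl11 are high in every group, while Ccl6, Ccl9, Ccl8 and Pf4 are low at 3W and high in 12W HFD and 6M.

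A set of 5 ligands made up most of the chemokine transcripts in every group. Cxcl1, Cxcl12, Ccl2, Ccl7 and Ccl11 together held 86.9% of the summed member TPM in WT 3W, 91.3% in 1W HFD, 76.0% in 12W HFD and 82.6% in 6M. The sum over all member rows averaged 3021 TPM ± 1013 (SD, n = 7) in WT 3W and 7264 TPM ± 1839 (SD, n = 5) in WT 12W HFD. By mean level the order in WT 3W was Cxcl1, Cxcl12, Ccl11, Ccl7 and Ccl2, and neighbours in this order overlapped between libraries. In WT 12W HFD it was Ccl11, Cxcl12, Ccl7, Ccl2 and Cxcl1, and neighbours overlapped again.

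Ccl11 (eotaxin-1, an attractant of eosinophils; chromosome 11, 82057823 to 82062955) stood at 599.5 and 619 TPM in P12 and at 345 (lowest), 671 (median) and 897 (highest) TPM in WT 3W. It reached 1303, 1294, 1599 and 1790.3 TPM in 1W HFD, 2229, 1554, 1791, 997 and 1832 TPM in 12W HFD and 2099 and 4500.1 TPM in 6M. Every library of these 3 later WT groups lay above every WT 3W library. The log2 change from 3W was 1.34 ± 0.26 (SE, limma adjusted p = 0.00201) in 1W HFD, 1.47 ± 0.25 (SE, limma adjusted p = 6.81e-05) in 12W HFD and 2.39 ± 0.34 (SE, limma adjusted p = 2.77e-05) in 6M. In KO cells Ccl11 was at 713, 683, 928, 557 and 849.6 TPM in 3W, at 1717 and 902 in 1W HFD and at 1712 and 1639.8 in 12W HFD. Both KO 12W HFD libraries lay above all 5 KO 3W libraries, with a log2 change of 1.19 ± 0.35 (SE, limma adjusted p = 0.0456). That call held in only 1 of 7 fits with 1 library left out, and leaving out either KO 12W HFD library ended it. From 1W to 12W HFD the WT change did not pass (log2 change 0.13 ± 0.28 SE, limma adjusted p = 0.89).

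Ccl2 and Ccl7 (MCP-1 and MCP-3, ligands of the monocyte receptor Ccr2) lie side by side on chromosome 11, at 82035571 to 82037453 and 82045712 to 82047525. Ccl2 stood at 267 and 1303 TPM in P12 and 73.8 (lowest), 211 (median) and 726 (highest) TPM in WT 3W. It was at 413, 694, 555 and 1213 TPM in 1W HFD, 1091, 1334, 794, 357 and 894 TPM in 12W HFD and 1508 and 1167 TPM in 6M. Single libraries of a group differed several-fold, and the 1W and 12W HFD groups overlapped with 3W, while both 6M libraries were above all of 3W. The log2 change of Ccl2 from 3W was 1.79 ± 0.57 (SE, limma adjusted p = 0.0487) in 1W HFD, 2.09 ± 0.53 (SE, limma adjusted p = 0.00624) in 12W HFD and 2.79 ± 0.72 (SE, limma adjusted p = 0.0125) in 6M. The 6M call was lost without either 6M library, and the 1W HFD call held in only 2 of 11 fits with 1 library left out. The 12W HFD call of Ccl2 held in every fit tried. Ccl7 stood at 257 and 1358 TPM in P12 and 106 (lowest), 257 (median) and 1317 (highest) TPM in WT 3W. It was at 466, 697, 558 and 1754 TPM in 1W HFD, 1514, 1608, 1042, 369 and 733 TPM in 12W HFD and 3263 and 1526 TPM in 6M. Like Ccl2, its HFD groups overlapped with 3W and its 6M libraries did not. Its change from 3W passed in 12W HFD (log2 change 1.74 ± 0.56 SE, limma adjusted p = 0.033) and 6M (log2 change 3.01 ± 0.76 SE, limma adjusted p = 0.0104) and not in 1W HFD (log2 change 1.44 ± 0.59 SE, limma adjusted p = 0.144). The 12W HFD call of Ccl7 held in only 5 of 12 fits with 1 library left out, and the 6M call was lost without WT 6M replicate 1.

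Ccl2 and Ccl7 also varied together between libraries of 1 group. Over the 7 WT 3W libraries Pearson's r of their log2(TPM + 1) was 0.949 (exact permutation, adjusted p = 0.00595 over 10 pairs of the 5 abundant ligands) and Spearman's rho 0.964 (exact permutation, adjusted p = 0.0139). Without the 2 libraries farthest from the median r was 0.894. Cxcl1 ran with Ccl7 (r 0.904, adjusted exact permutation p = 0.0337, and rho 0.964, adjusted exact permutation p = 0.0139) and with Ccl2 (r 0.874, adjusted exact permutation p = 0.0364, and rho 0.893, adjusted exact permutation p = 0.041), and r was 0.676 and 0.659 without the 2 farthest libraries. The other 7 pairs did not pass. Which libraries shared a sort or preparation is not stated in the labels. Such a correlation describes the libraries, and its cause was not tested.

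Cxcl1 (KC, an ELR ligand of the neutrophil receptor Cxcr2; chromosome 5, 90891241 to 90893115) stood at 281 (lowest), 589 (median) and 1401 (highest) TPM in WT 3W. It was at 525 and 1115 TPM in P12, 998, 993, 693 and 1183 in 1W HFD, 1735, 469, 542, 821 and 543 in 12W HFD and 1628 and 667 in 6M. All WT groups overlapped, and no change passed the threshold (12W HFD against 3W log2 change 0.18 ± 0.42 SE, limma adjusted p = 0.842). KO libraries held 214, 585, 1116, 721 and 1068 TPM in 3W, 1143 and 1914 in 1W HFD and 4186 and 974 in 12W HFD. The 4186 TPM of KO 12W HFD replicate 1 was the highest Cxcl1 value of all 29 libraries, and the other KO 12W HFD library lay within the WT range.

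Cxcl12 (SDF-1, the ligand of Cxcr4 that holds leukocytes and stem cells in tissues; chromosome 6, 117168535 to 117181367) stood at 1355 and 607 TPM in P12 and 299.6 (lowest), 606 (median) and 1092 (highest) TPM in WT 3W. It was at 561, 553, 454 and 789.6 TPM in 1W HFD, 1317, 978, 1009, 1359 and 806 TPM in 12W HFD and 2523 and 457 TPM in 6M. These WT groups overlapped with 3W, and no WT change passed (12W HFD against 3W log2 change 0.82 ± 0.34 SE, limma adjusted p = 0.112). KO libraries held 591, 563, 839, 477 and 357 TPM in 3W, 1063 and 2266 in 1W HFD and 3034 and 2878 in 12W HFD. Both KO 12W HFD libraries lay above all 5 KO 3W libraries, and the rise passed (log2 change 2.44 ± 0.48 SE, limma adjusted p = 0.00145), in every fit tried. That KO rise was not shown to differ from the WT one: no member passed the test of that difference, given further on.

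**Figure D2:**
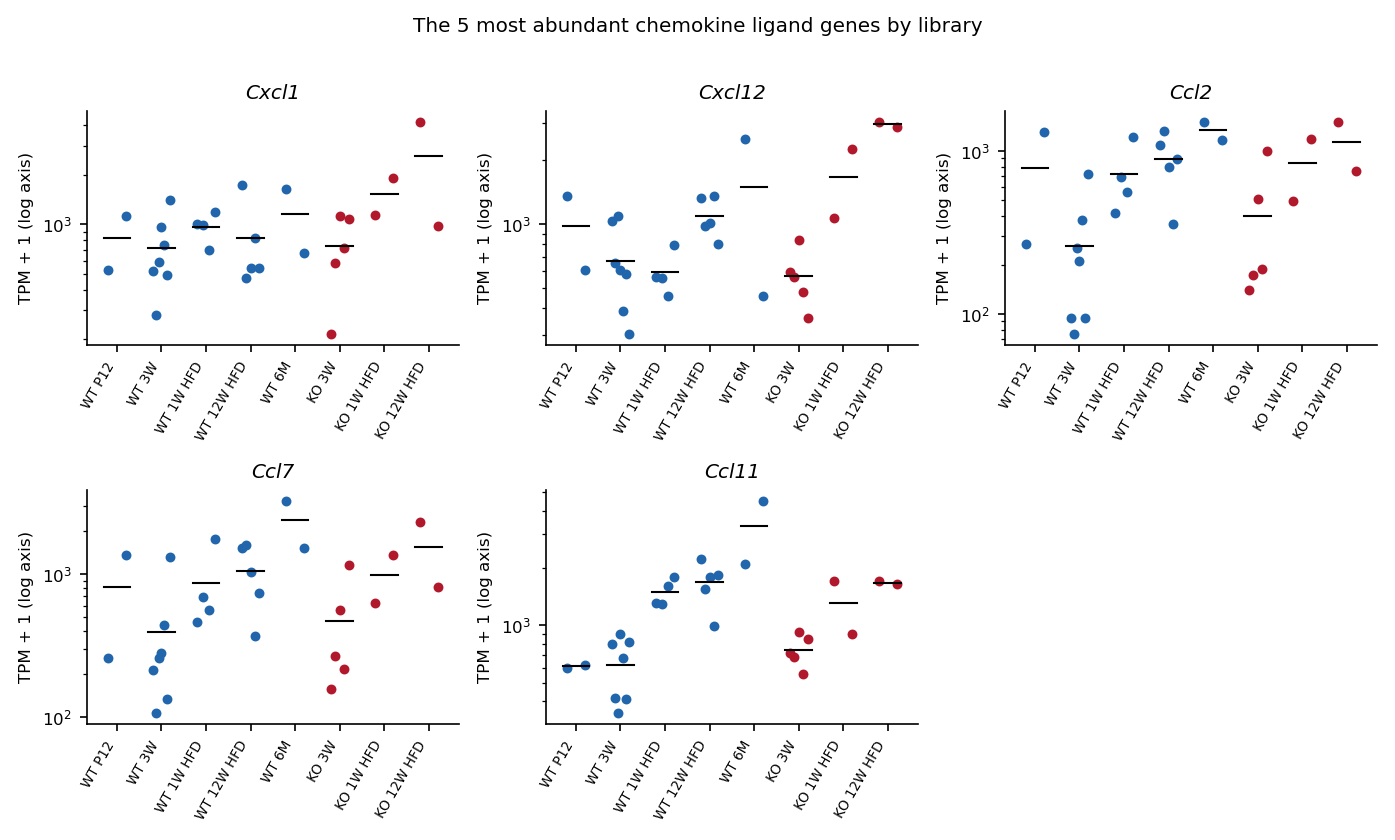
Level of Cxcl1, Cxcl12, Ccl2, Ccl7 and Ccl11 in each RNA library (points; TPM + 1 on a log axis) by group, WT in blue and KO in red, with the group mean as a bar. Ccl11 in 1W HFD, 12W HFD and 6M lies above all WT 3W libraries, while Cxcl1 overlaps between all WT groups.

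Ccl6, Ccl9 and Ccl8 had the largest log2 changes of all members from WT 3W to 12W HFD, and Pf4 rose beside them. All 4 were low at 3W. Ccl6 and Ccl9 (MRP-1 and MRP-2 of mouse, ligands of Ccr1 made mainly by myeloid cells) lie on chromosome 11, at 83587882 to 83593087 and 83572919 to 83578636. Ccl6 was at 11.6 and 2.8 TPM in P12 and 0.31 (lowest), 4.52 (median) and 12.1 (highest) TPM in WT 3W. It was at 21.1, 26.1, 44.7 and 44.1 TPM in 1W HFD, 614, 554, 534, 477 and 379 TPM in 12W HFD and 400.3 and 199.8 TPM in 6M. The 1W HFD libraries lay above all of 3W and the 12W HFD libraries above all of 1W HFD, with no overlap. The log2 change from 3W was 2.68 ± 0.56 (SE, limma adjusted p = 0.00319) in 1W HFD, 6.60 ± 0.52 (SE, limma adjusted p = 2e-10) in 12W HFD and 5.77 ± 0.71 (SE, limma adjusted p = 4.99e-06) in 6M, and from 1W to 12W HFD 3.93 ± 0.60 (SE, limma adjusted p = 5.65e-05). In KO cells it was at 70.7, 16.4, 5.22, 7.23 and 41.5 TPM in 3W, 76.8 and 119 in 1W HFD and 215 and 572 in 12W HFD, with a log2 change of 4.19 ± 0.75 (SE, limma adjusted p = 0.000432) from 3W to 12W HFD that was lost without KO 12W HFD replicate 2 (adjusted p = 0.063 by limma).

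Ccl9 was at 5.47 and 3.83 TPM in P12 and 0 (lowest), 0.5 (median) and 3.57 (highest) TPM in WT 3W. It was at 2.52, 6.09, 8.74 and 3.86 TPM in 1W HFD, 144, 64.02, 85.9, 161 and 83.1 TPM in 12W HFD and 50.3 and 37.6 TPM in 6M. The 12W HFD and 6M libraries lay above all of 3W and 1W HFD, and 1W HFD overlapped with 3W. Its log2 change from 3W was 5.90 ± 0.47 (SE, limma adjusted p = 2.3e-10) in 12W HFD, 4.70 ± 0.65 (SE, limma adjusted p = 1.99e-05) in 6M and 1.78 ± 0.50 (SE, limma adjusted p = 0.0271) in 1W HFD, and from 1W to 12W HFD 4.12 ± 0.54 (SE, limma adjusted p = 7.16e-06). KO libraries held 11.6, 1.04, 2.26, 6.9 and 0.83 TPM in 3W, 10.4 and 52.2 in 1W HFD and 96.9 and 191 in 12W HFD. Both KO 12W HFD libraries lay above the other KO libraries, and the rise from 3W passed (log2 change 5.05 ± 0.67 SE, limma adjusted p = 1.35e-05) in every fit tried.

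Ccl8 (MCP-2; chromosome 11, 82115185 to 82116799) was at 47.8 and 5.27 TPM in P12 and 0.8 (lowest), 7.13 (median) and 11.3 (highest) TPM in WT 3W. It was at 53.99, 34.7, 29.2 and 59.6 TPM in 1W HFD, 540.5, 287, 254, 118 and 151 TPM in 12W HFD and 1460.0 and 226 TPM in 6M. The 3 groups 3W, 1W HFD and 12W HFD did not overlap, and WT 6M replicate 1 held more than any other library. The log2 change from 3W was 2.90 ± 0.63 (SE, limma adjusted p = 0.00422) in 1W HFD, 5.33 ± 0.58 (SE, limma adjusted p = 7.67e-08) in 12W HFD and 6.62 ± 0.80 (SE, limma adjusted p = 3.57e-06) in 6M, and from 1W to 12W HFD 2.43 ± 0.67 (SE, limma adjusted p = 0.0259). KO libraries held 15.4, 5.15, 3.5, 19.7 and 20.4 TPM in 3W, 45.6 and 402 in 1W HFD and 199 and 215 in 12W HFD. Both later KO groups lay above KO 3W (1W HFD log2 change 3.57 ± 0.83 SE, limma adjusted p = 0.0349, 12W HFD log2 change 4.18 ± 0.83 SE, limma adjusted p = 0.00155). The first call held in 4 of 7 fits with 1 library left out, and was lost without KO 1W HFD replicate 2 (log2 change 2.02). The second was lost without KO 12W HFD replicate 2 (log2 change 4.12).

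Pf4 (platelet factor 4 or Cxcl4, stored in platelets and also made by macrophages; chromosome 5, 90772435 to 90773383) was at 1.98 and 8.87 TPM in P12 and 2.47 (lowest), 7.47 (median) and 14.8 (highest) TPM in WT 3W. It was at 35.4, 43.1, 38.5 and 53.3 TPM in 1W HFD, 87.3, 154, 176, 169 and 70.3 TPM in 12W HFD and 107 and 103 TPM in 6M. The 3W, 1W HFD and 12W HFD libraries formed separate ranges. The log2 change from 3W was 2.46 ± 0.37 (SE, limma adjusted p = 0.00017) in 1W HFD, 3.99 ± 0.34 (SE, limma adjusted p = 1.21e-09) in 12W HFD and 3.76 ± 0.47 (SE, limma adjusted p = 6.02e-06) in 6M, and from 1W to 12W HFD 1.52 ± 0.39 (SE, limma adjusted p = 0.0167). KO libraries held 28.8, 12.5, 11.99, 10.8 and 16.4 TPM in 3W, 47.9 and 50.8 in 1W HFD and 73.4 and 30.6 in 12W HFD, and the KO change from 3W to 12W HFD did not pass (log2 change 1.59 ± 0.49 SE, limma adjusted p = 0.0575). Markers of erythroid cells and platelets, 10 genes in all, summed to 1128 to 9503 TPM in WT 3W, 932 to 7344 TPM in 1W HFD, 3632 to 41730.2 TPM in 12W HFD and 9150 and 39144 TPM in 6M, and their part in the Pf4 values was not tested. Of these genes Gp9 was listed at 0 in all WT HFD libraries, and Ppbp was at 0 in all 7 WT 3W libraries and at most 1.31 TPM in the WT HFD libraries.

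Ccl3, Ccl4 and Ccl5 (MIP-1 alpha, MIP-1 beta and RANTES, made by activated macrophages and T cells) were low in most 3W libraries. Ccl3 was at 0 (lowest), 1.87 (median) and 2.68 (highest) TPM in WT 3W, 0, 1.76, 2.12 and 3.33 in 1W HFD, 25.1, 17.2, 13.9, 26.4 and 12.1 in 12W HFD and 20.9 and 4.13 in 6M. All 12W HFD libraries lay above those of 3W and 1W HFD (from 3W log2 change 3.25 ± 0.56 SE, limma adjusted p = 9.39e-05, from 1W HFD log2 change 2.95 ± 0.64 SE, limma adjusted p = 0.00338). Ccl4 was at 0 (lowest), 0.33 (median) and 10.8 (highest) TPM in WT 3W, 3.44, 1.92, 0 and 3.19 in 1W HFD, 52.6, 16.3, 14.9, 18.3 and 8.72 in 12W HFD and 64.8 and 10.2 in 6M. The 12W HFD and 6M groups overlapped with 3W through 1 high 3W library, and both changes passed (12W HFD log2 change 3.19 ± 0.64 SE, limma adjusted p = 0.000591, 6M log2 change 3.67 ± 0.87 SE, limma adjusted p = 0.00648). Without WT 6M replicate 1 the 6M changes of Ccl4 (2.40, limma adjusted p = 0.243) and Ccl3 (1.36, limma adjusted p = 0.507) did not pass. The Ccl3 call was also lost without WT 3W replicate 1, 2 or 6. Ccl5 was at 0 (lowest), 0.66 (median) and 7.74 (highest) TPM in WT 3W, 13.4, 18.3, 5.72 and 3.62 in 1W HFD, 42.4, 209.8, 58.8, 7.88 and 25.6 in 12W HFD and 52.6 and 57.97 in 6M. It rose in 12W HFD (log2 change 4.37 ± 0.64 SE, limma adjusted p = 8.98e-06) and 6M (log2 change 4.80 ± 0.87 SE, limma adjusted p = 0.000486) without overlap, and in 1W HFD with overlap (log2 change 2.25 ± 0.68 SE, limma adjusted p = 0.0382). In KO 12W HFD Ccl3 was at 4.8 and 33.98 TPM, Ccl4 at 27.04 and 42.3 TPM and Ccl5 at 11.7 and 24.6 TPM. Of the KO changes from 3W only that of Ccl4 passed (log2 change 4.25 ± 0.91 SE, limma adjusted p = 0.00318), and it was lost without KO 12W HFD replicate 2 (limma adjusted p = 0.109).

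The rises of these myeloid-type ligands ran beside those of macrophage markers. The summed level of 20 macrophage markers was 84.8 to 289 TPM in WT 3W, 720 to 1053 in 1W HFD, 4990 to 13208 in 12W HFD, and 8275 and 3584 in 6M. It was 177 to 770 TPM in KO 3W, 1452 and 1565 in KO 1W HFD and 4175 and 8483 in KO 12W HFD. Of the 20 markers, 18 rose in WT 12W HFD against 3W, 17 in 6M and 14 in 1W HFD (7.94%, 4% and 4.78% of all tested genes rose). The defining marker Adgre1 (F4/80) was at 0 to 0.64 TPM in WT 3W and at 48.8 to 159 TPM in 12W HFD, and Lyz2 at 3.54 to 26.2 and at 961 to 1701 TPM. In bulk libraries a change in the number of cells of a type and a change in RNA per cell cannot be told apart, and the part of macrophage RNA in these results was not tested.

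**Figure D3:**
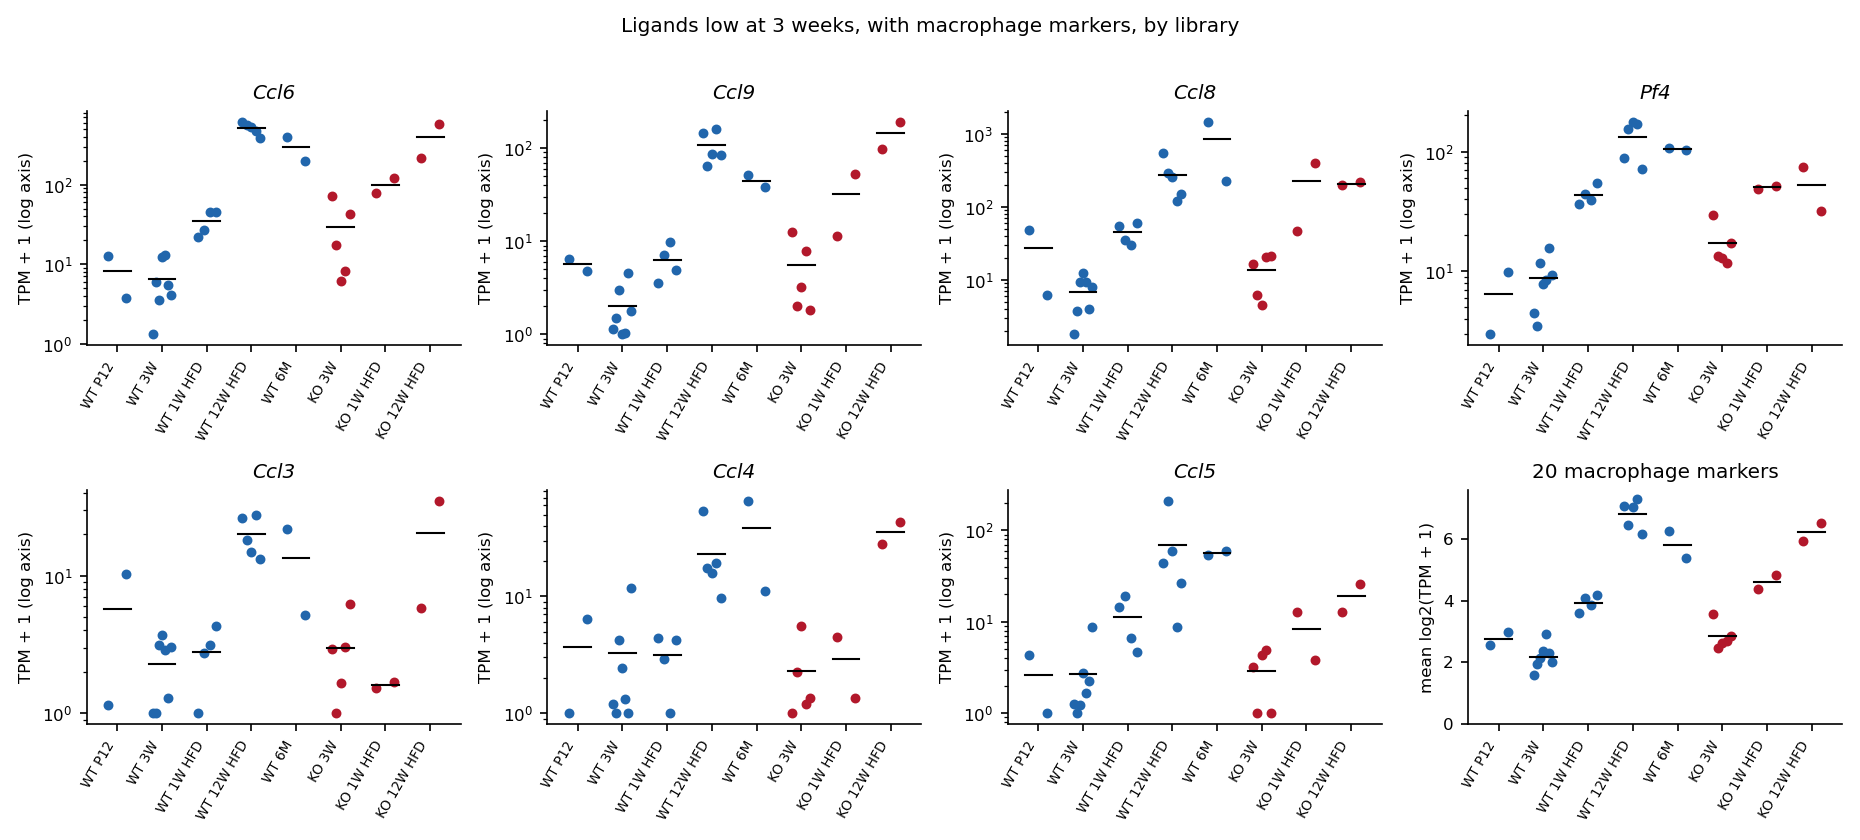
Level of Ccl6, Ccl9, Ccl8, Pf4, Ccl3, Ccl4 and Ccl5 in each RNA library (points; TPM + 1 on a log axis), WT in blue and KO in red with group means as bars, and in the last panel the mean log2(TPM + 1) of 20 macrophage markers on a linear axis. Ccl6 and Pf4 form separate ranges in WT 3W, 1W HFD and 12W HFD, and the macrophage markers rise over the same groups.

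Ccl12 (MCP-5, a mouse ligand of Ccr2; chromosome 11, 82101845 to 82103400) was listed at 0 in P12 and stood at 0 (lowest), 1.01 (median) and 12.5 (highest) TPM in WT 3W. It was at 16.2, 14.3, 3.76 and 7.63 TPM in 1W HFD, 18.1, 15.6, 24.8, 2.46 and 6.36 TPM in 12W HFD and 54.5 and 58.4 TPM in 6M. Both 6M libraries lay above all others, and the HFD groups overlapped with 3W. The log2 change from 3W was 4.57 ± 0.80 (SE, limma adjusted p = 0.000348) in 6M, 2.26 ± 0.59 (SE, limma adjusted p = 0.00753) in 12W HFD and 2.08 ± 0.63 (SE, limma adjusted p = 0.0377) in 1W HFD. In KO 12W HFD it was at 2.07 and 1.21 TPM.

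Among the neutrophil attractants beside Cxcl1, Cxcl2 (MIP-2; chromosome 5, 90903871 to 90905938) was at 14.2 and 26.7 TPM in P12 and 0.79 (lowest), 6.31 (median) and 13.99 (highest) TPM in WT 3W. It was at 13.1, 16.4, 10.02 and 17.2 TPM in 1W HFD, 117, 58.2, 80.9, 225 and 37.8 TPM in 12W HFD and 54.8 and 24.9 TPM in 6M. The 12W HFD libraries lay above all of 3W and 1W HFD, and 1W HFD overlapped with 3W. Its log2 change was 3.98 ± 0.48 (SE, limma adjusted p = 4.68e-07) from 3W to 12W HFD, 2.55 ± 0.56 (SE, limma adjusted p = 0.00357) from 1W to 12W HFD and 2.78 ± 0.66 (SE, limma adjusted p = 0.00682) from 3W to 6M, the last lost without WT 6M replicate 1. KO 12W HFD libraries held 112 and 80.95 TPM and KO 3W libraries 3.14, 7.81, 27.5, 5.25 and 9.53 TPM, without overlap (log2 change 3.37 ± 0.69 SE, limma adjusted p = 0.0021), a call lost without KO 12W HFD replicate 1 (limma adjusted p = 0.0576). The promoter stretches of Cxcl1 and Cxcl2 printed above each carry 2 kB matches. Cxcl2 passed in 3 WT comparisons and Cxcl1 in none, and the difference between the genes was not tested.

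Cxcl5 (LIX, another Cxcr2 ligand) was at 0 (lowest), 0.19 (median) and 0.93 (highest) TPM in WT 3W, 13.8, 6.8, 3.69, 0.75 and 0.28 in 12W HFD and 27.01 and 3.36 in 6M. Its 12W HFD libraries overlapped with 3W. The change passed in 12W HFD (log2 change 1.76 ± 0.55 SE, limma adjusted p = 0.0306) and 6M (log2 change 3.17 ± 0.76 SE, limma adjusted p = 0.00691). Its 12W HFD call held in 8 of 12 fits with 1 library left out and was lost without WT 12W HFD replicate 1, among others. Its 6M call was lost without WT 6M replicate 1. In KO cells it went from 0.07, 0, 1.16, 0.6 and 3.3 TPM in 3W to 20.3 and 26.4 TPM in 12W HFD without overlap (log2 change 3.80 ± 0.79 SE, limma adjusted p = 0.00246), a call lost without KO 12W HFD replicate 2 (limma adjusted p = 0.0786). The receptor Cxcr2 was listed between 0 and 3.46 TPM over the 29 libraries. Neutrophil and mast cell markers summed to 0 to 6.25 TPM in WT 3W, 20.1 to 344 TPM in 12W HFD, and 366 and 38.6 TPM in 6M, and their part in the Cxcl2 and Cxcl5 values was not tested.

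The interferon-inducible ligands Cxcl9 and Cxcl10, which attract Cxcr3-bearing T cells, lie on chromosome 5 at 92321347 to 92328079 and 92346638 to 92348889. In 12W HFD Cxcl9 rose and Cxcl10 fell. Cxcl9 was at 0 (lowest), 0.62 (median) and 2.94 (highest) TPM in WT 3W, 10.5, 5.28, 4.5 and 4.79 in 1W HFD, 92.6, 9.05, 3.76, 4.64 and 5.97 in 12W HFD and 7 and 2.81 in 6M. All HFD libraries lay above all of 3W, and WT 12W HFD replicate 1, the library with the high interferon response genes, stood far above the rest. The log2 change of Cxcl9 from 3W was 2.00 ± 0.59 (SE, limma adjusted p = 0.0332) in 1W HFD and 2.70 ± 0.55 (SE, limma adjusted p = 0.000798) in 12W HFD. Cxcl10 was at 59.2 and 193 TPM in P12, 7.89 (lowest), 21.8 (median) and 55.96 (highest) in WT 3W, 23.1, 38.3, 7.3 and 13.4 in 1W HFD, 21.9, 2.67, 5.82, 2.46 and 2.95 in 12W HFD and 16.1 and 1.15 in 6M. The 12W HFD libraries reached into the 3W range, and 4 of the 5 lay below every 3W library. The fall from 3W to 12W HFD passed narrowly (log2 change -2.02 ± 0.68 SE, limma adjusted p = 0.045) and was lost in most of the fits with 1 library left out. In KO cells Cxcl9 rose from 1.14, 0.47, 4.86, 0.99 and 1.63 TPM in 3W to 11.1 and 27.4 TPM in 12W HFD (log2 change 2.89 ± 0.79 SE, limma adjusted p = 0.0254). That call held in 3 of 7 fits with 1 library left out, and was lost without either KO 12W HFD library. Cxcl10 overlaps the gene Art3 in the table, and how reads in the overlap were assigned was not found in the labels.

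Of the lymphoid and dendritic cell ligands, Ccl19 (a Ccr7 ligand of lymph node stroma) was the most abundant. It was at 30.8 and 59.6 TPM in P12 and 92.99 (lowest), 114 (median) and 174 (highest) TPM in WT 3W. It was at 76.4, 45.5, 27.2 and 58.1 TPM in 1W HFD, 108, 138, 82.5, 75.03 and 80.4 TPM in 12W HFD and 44.1 and 38.95 TPM in 6M. The 1W HFD and 6M libraries lay below every 3W library, and 12W HFD overlapped with 3W. It fell in 1W HFD (log2 change -1.26 ± 0.32 SE, limma adjusted p = 0.012) and 6M (log2 change -1.49 ± 0.40 SE, limma adjusted p = 0.0167) and did not pass in 12W HFD (log2 change -0.32 ± 0.29 SE, limma adjusted p = 0.557). The 6M call was lost without either 6M library and when libraries were scaled by median ratios (log2 change -1.18, limma adjusted p = 0.0754). KO libraries held 53.8, 136, 90.2, 129 and 320.0 TPM in 3W, 40.3 and 55.9 in 1W HFD and 123 and 158 in 12W HFD.

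Ccl22 and Ccl17, ligands of Ccr4 made by dendritic cells and macrophages, were low. Ccl22 was listed at 0 in all WT 3W and 1W HFD libraries and at 4.13, 4.72, 3.82, 0 and 0 TPM in 12W HFD, where 3 of 5 libraries lay above all others and 2 were at 0. Ccl22 met the level filter only through these 12W HFD libraries, so its values are given as a description. Ccl17 was at 0.44, 20.3, 2.9, 0 and 0.65 TPM in 12W HFD against at most 0.47 TPM in 3W (log2 change 1.45 ± 0.46 SE, limma adjusted p = 0.0329), and without WT 12W HFD replicate 2, the 1 high library, the change was 0.72 (limma adjusted p = 0.149). Xcl1, made by T and natural killer cells, was listed at 0 in all WT 3W, KO 3W and KO 1W HFD libraries. It was at 3.82, 1.1, 0.31, 0 and 0 TPM in WT 12W HFD, 0.58 and 7.77 TPM in 6M and 4.07 and 7.69 TPM in KO 12W HFD. Its change passed in 6M (log2 change 1.90 ± 0.45 SE, limma adjusted p = 0.00652, lost without WT 6M replicate 2) and in KO 12W HFD (log2 change 2.73 ± 0.47 SE, limma adjusted p = 0.000277 from 3W, in every fit tried). Lymphocyte markers summed to 3.92 to 29.9 TPM in WT 3W and 134 to 1456 TPM in 12W HFD, and their part in the Xcl1 and Ccl5 values was not tested.

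Ccl21a (a Ccr7 ligand) was low but for single libraries: it stood at 1.5 and 131 TPM in P12, 0 (lowest), 1.54 (median) and 3.12 (highest) TPM in WT 3W and 51.5, 0.8, 0.43, 0.15 and 1.13 TPM in KO 3W. The high KO value was that of KO 3W replicate 1, which also stood apart in macrophage markers. The higher value was in P12 replicate 2. Over the P12 libraries macrophage markers summed to 228 and 256 TPM. Endothelial markers summed to 351 and 1109 TPM in P12 and 68.4 to 177 TPM in KO 3W. The part of other cells in the Ccl21a values was not tested. No change of Ccl21a passed. Copies of Ccl21a, Ccl21b, Ccl21c, Ccl19 and Ccl27a on unplaced scaffolds are near-identical genes among which reads could be split, and 2 of these rows, for Ccl21b and Ccl21c, held identical values in all libraries. Their levels are uncertain for this reason.

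The membrane-bound ligands are made with a stalk that holds them on the cell. Cx3cl1 (fractalkine, the ligand of Cx3cr1) was at 0.03 (lowest), 0.81 (median) and 3.02 (highest) TPM in WT 3W, 0, 1.61, 4.22 and 0.51 in 1W HFD, 25.3, 5.35, 5.77, 23.6 and 16.9 in 12W HFD and 2.65 and 1.23 in 6M. The 12W HFD libraries lay above all of 3W and 1W HFD, and the 6M libraries lay within the 3W range. Its log2 change was 2.96 ± 0.49 (SE, limma adjusted p = 5.58e-05) from 3W and 2.69 ± 0.56 (SE, limma adjusted p = 0.00216) from 1W HFD. Between 12W HFD and 6M the difference did not pass (log2 change 2.27 ± 0.70 SE, limma adjusted p = 0.107), so a difference between those groups was not shown. KO libraries held 2.02, 0.52, 9.12, 2.43 and 0.58 TPM in 3W, 2.64 and 2.24 in 1W HFD and 26.6 and 69.4 in 12W HFD, and both 12W HFD values were above all other KO values (from 3W log2 change 3.87 ± 0.70 SE, limma adjusted p = 0.000511, from 1W HFD log2 change 3.68 ± 0.84 SE, limma adjusted p = 0.0292). The rise from 3W was lost without KO 12W HFD replicate 2 (limma adjusted p = 0.0697). The rise from 1W HFD was lost without either KO 1W HFD library or KO 12W HFD replicate 2 (limma adjusted p between 0.158 and 0.444).

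Cxcl16 (the ligand of Cxcr6, also a scavenger receptor) was at 25.6 (lowest), 48.4 (median) and 70.2 (highest) TPM in WT 3W and 90.2, 70.02, 69.4, 76.1 and 64.1 TPM in 12W HFD, and no WT change passed. In KO cells it went from 36.98, 39.2, 50.8, 64.4 and 27.9 TPM in 3W to 66.2 and 141 TPM in 12W HFD without overlap (log2 change 1.18 ± 0.35 SE, limma adjusted p = 0.0424). That call held in 3 of 7 fits with 1 library left out, and was lost without KO 12W HFD replicate 2 (log2 change 0.64).

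Of the homeostatic CXC ligands, Cxcl14 (an epithelial and stromal chemokine) was at 77.5 and 7.48 TPM in P12, 9.61 (lowest), 38.99 (median) and 168 (highest) in WT 3W, 84.4, 65.8, 58.5 and 94.5 in 1W HFD, 239.6, 83.4, 76.98, 190.5 and 277 in 12W HFD and 22.4 and 228 in 6M. The 12W HFD and 3W ranges overlapped, and the rise passed (log2 change 2.15 ± 0.59 SE, limma adjusted p = 0.012). KO libraries held 35.6, 33.9, 23, 28.4 and 20.3 TPM in 3W, 24.2 and 69.1 in 1W HFD and 450.4 and 259 in 12W HFD. Both KO 12W HFD values lay above the other KO values, with a log2 change from 3W of 3.58 ± 0.84 (SE, limma adjusted p = 0.00788) that was lost without either of them. Cxcl13 (BLC, which draws B cells) was at 2.18 (lowest), 5.84 (median) and 45.7 (highest) TPM in WT 3W, 14.3, 21.1, 4.84, 21.7 and 13.8 in 12W HFD, 697 and 7.76 in 6M and 67.3 and 499.7 in KO 1W HFD. Its high values were those of WT 6M replicate 1, which also held the lymphocyte markers, and of KO 1W HFD replicate 2, which did not. That KO library held 18.9 TPM of lymphocyte markers, against 413 TPM in KO 1W HFD replicate 1. No change of Cxcl13 passed.

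Ccl27a (CTACK, a keratinocyte chemokine that binds Ccr10) was the epithelial-type ligand that changed. It was at 33.8 (lowest), 42.9 (median) and 60.02 (highest) TPM in WT 3W and 13.7, 19.5, 4.02 and 21.8 TPM in 1W HFD, where every library lay below every 3W library (log2 change -1.75 ± 0.31 SE, limma adjusted p = 0.000836). In 12W HFD it was at 42.1, 20.2, 35.6, 12.8 and 26.4 TPM, in 6M at 39.5 and 51.5 TPM, and neither differed from 3W by the test. Ccl27a overlaps Il11ra1 in the table, which averaged 526 to 797 TPM in the 8 groups, and whether counts were strand-aware was not found in the labels. Ccl25 lay between 2.85 and 24.5 TPM in all libraries, with no call. Ccl24 (eotaxin-2) was listed at 0 in P12 and at 0, 15.2, 4.37 and 1.06 TPM in 1W HFD, with no call in any comparison. In all, 12 tested members passed in no comparison, and 24, Ccl22 among them, passed in at least 1.

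KO and WT cells were compared at 3W, 1W HFD and 12W HFD. No member passed limma's threshold at 3W (0% of all genes did), at 1W HFD (0.0255%) or at 12W HFD (0.00639%). The members' median log2 change, KO minus WT, was 0.31, 0.21 and 0.35, beside medians over all genes of 0.01, 0 and -0.01. Members with an unadjusted p under 0.05 numbered 4, 4 and 8 of 36, beside 3.49%, 3.45% and 3.64% of all genes. The 8 include Ccl22, which met the level filter only through the WT 12W HFD libraries. Of the 546 genes with an unadjusted p under 0.05 at 3W, none passed after adjustment. The lack of calls does not show that the genotypes were alike, since KO 1W and 12W HFD hold 2 libraries each.

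At 3W the 4 members were Ccl6 (log2 change 1.90 ± 0.52 SE), Ccl9 (1.28 ± 0.47 SE), Pf4 (1.04 ± 0.34 SE) and a scaffold copy of Ccl21a. All were higher in KO and each had a limma adjusted p of 1. The macrophage marker sum was 177 to 770 TPM in KO 3W and 84.8 to 289 TPM in WT 3W, and 16 of the 20 markers had a positive change with none called. KO 3W replicate 1 held the highest Ccl6, Ccl9, Pf4 and macrophage values of its group. At 1W HFD the members were Cxcl5 (2.72 ± 0.82 SE), Cxcl12 (1.42 ± 0.50 SE), Cxcl13 (3.16 ± 1.17 SE) and Ccl9 (2.07 ± 0.70 SE), again all higher in KO, with limma adjusted p of 1.

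At 12W HFD 5 of the 8 members were higher in KO and 3, Ccl22 among them, were lower. Cxcl12 was at 3034 and 2878 TPM in KO and 1317, 978, 1009, 1359 and 806 TPM in WT, with a change of 1.46 ± 0.48 (SE, limma adjusted p = 1). KO lay above every WT library without overlap. Xcl1 (log2 change 1.98 ± 0.47 SE, limma adjusted p = 0.368), Cxcl5 (log2 change 2.55 ± 0.79 SE, limma adjusted p = 1), Cx3cl1 (log2 change 1.68 ± 0.70 SE, limma adjusted p = 1) and Cxcl1 (log2 change 1.48 ± 0.60 SE, limma adjusted p = 1) were the others with higher values in KO. Pf4 was at 73.4 and 30.6 TPM in KO and 87.3, 154, 176, 169 and 70.3 TPM in WT, where the KO values lay at the lower end (log2 change -1.35 ± 0.49 SE, limma adjusted p = 1). Ccl12 (log2 change -2.15 ± 0.84 SE, limma adjusted p = 1) and Ccl22 also had lower values in KO. Ccl22 met the level filter only through the WT 12W HFD libraries, so its lower KO values are a description and not a test result. Macrophage markers summed to 4175 and 8483 TPM in KO and 4990 to 13208 TPM in WT at this stage. Without WT 12W HFD replicate 1, 1 member passed (Xcl1, higher in KO).

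Whether the KO effect differed between stages was tested as a difference of differences. No member passed for 1W HFD against 3W (0.00639% of all genes did), 12W HFD against 3W (0%) or 12W against 1W HFD (0.0128%). At an unadjusted p under 0.05 there were 3, 7 and 3 of 36 members, beside 2.64%, 2.68% and 2.76% of all genes. These tests and the KO and WT diet comparisons share libraries.

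**Figure D4:**
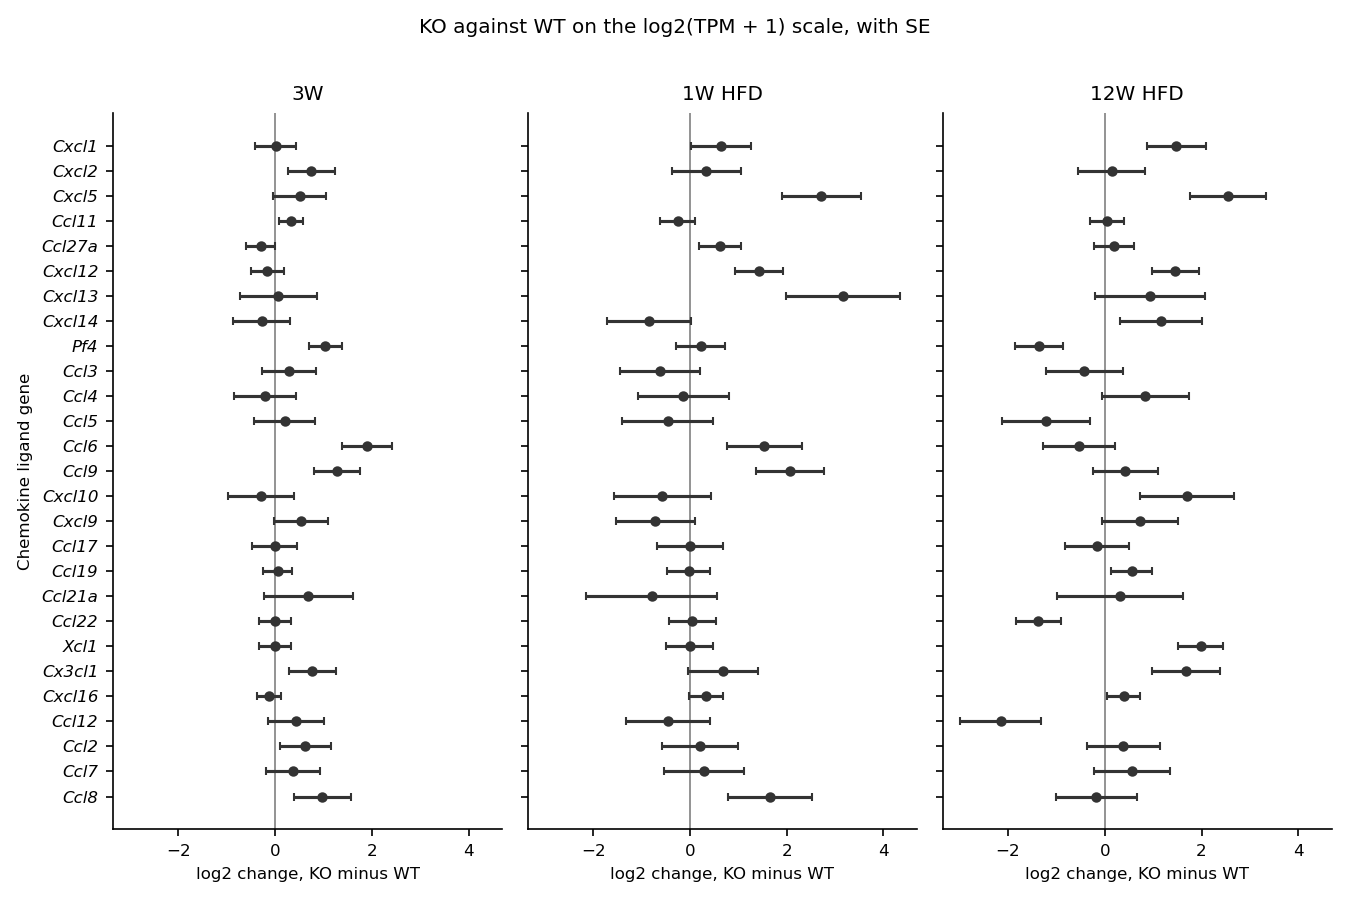
KO minus WT log2 change ± SE (horizontal) of 27 named members (vertical) at 3W, 1W HFD and 12W HFD. No point passed the threshold; Cxcl12 and Cxcl5 lie right of 0 at 1W and 12W HFD with error bars that do not reach 0, and Pf4 lies right of 0 at 3W and left of it at 12W HFD.

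Genes of the chemokine pathway were read from lists. Of 23 chemokine receptors 16 were tested, and 9 rose in WT 12W HFD against 3W, 5 in 6M and 3 in 1W HFD. Over all tested genes 7.94%, 4% and 4.78% rose in these comparisons. The 12W HFD set included Ccr2 (monocyte receptor of Ccl2, log2 change 3.21 ± 0.40 SE, from 0.23 to 13.0 TPM), Cxcr3 (2.15 ± 0.39) and Cxcr6 (1.89 ± 0.46). The 1W HFD set was the atypical, ligand-scavenging receptors Ackr2 (2.42 ± 0.56), Ackr1 and Ackr4. Endothelial markers, a cell type that bears Ackr1, summed to 67.8 to 130.3 TPM in 3W, 211 to 556 TPM in 1W HFD and 100.4 to 347 TPM in 12W HFD, and their part in these values was not tested. From 1W to 12W HFD, Ackr4 (-2.92 ± 0.52) and Ackr1 (-1.78 ± 0.46) fell while 6 receptors rose (3.54% of all tested genes rose and 2.39% fell). In KO cells Ccr2 and Cxcr3 were among the receptors that rose from 3W to 12W HFD. Between KO and WT none passed limma's threshold at any stage. The receptor of the abundant Cxcl12, Cxcr4, was at 0 to 1.68 TPM in all libraries, and the atypical receptor Ackr3 at 6.11 to 100 TPM. The eotaxin receptor Ccr3 was at 0 to 1.84 TPM.

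Genes that act upstream of chemokine expression were counted in the same way. Over all tested genes 7.94% rose and 6.23% fell in WT 12W HFD against 3W, 4% rose in 6M and 4.78% rose in 1W HFD. Of 18 NF-kB pathway genes 4 rose in WT 12W HFD against 3W (Tnfaip2, Vcam1, Traf1 and Nfkbie), 2 in 1W HFD (Vcam1 and Tnip1) and 1 in 6M (Traf1). The 6M count is near the share of all genes. The summed level of the 18 had a median of 1161 TPM in WT 3W and 1099 TPM in WT 12W HFD. Their mean log2(TPM + 1) was 4.17 and 4.80 in these groups. Of 8 tested inflammatory cytokines 4 rose in 12W HFD (Ltb, Tnf, Il1b and Ifng), 3 in 6M and 1 in 1W HFD (Tnf). Of 20 receptors of such cytokines 5 rose in 12W HFD, among them Tnfrsf1b, Osmr and Il1r1. In KO cells Osmr (2.75 ± 0.39) and Il1r1 (2.56 ± 0.38) rose from 3W to 12W HFD. Of 28 interferon response genes 8 rose in 1W HFD (led by Oas1a and Zbp1), and 6 rose and 1 fell in 12W HFD. The gene that fell was Irf1 (-1.43 ± 0.36), a transcription factor of the interferon response.

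ATAC-seq peak lists were read at the members' starts. A peak within 1 kb of the RefSeq start, or within 1 kb of the gene body for the 19 rows with no start entry, was counted. In WT 3W 13, 14 and 14 of the 46 rows had one, in 1W HFD 17 and 17, in 12W HFD 19 and 20, and in KO 3W 16 and 15. Over the 27 members with a start entry the share was 29.6 to 51.9%, beside 50.8 to 57.4% of all 27025 genes with one. A total of 13 members had a peak in all 9 lists, among them the 5 abundant ligands and Cxcl2, Cxcl10, Cx3cl1 and Cxcl16. The share of all genes with a peak in all 9 lists was not counted. Of the 13, Ccl2, Cxcl10, Cxcl16, Ccl25 and Ccl27a overlap another gene, such as Elavl1 for Ccl25 and Il11ra1 for Ccl27a. Which gene those peaks belong to was not tested. No list held a peak for 24 rows, which include Ccl6, Ccl4, Ccl5, Ccl19 and Cxcl13 and all 7 scaffold rows. Each library had its own peak calls, 55990 to 93314 in number. Lists were not of equal length, and no test was run. The first letter of the peak names, whose meaning the labels do not give, was B in WT 3W replicates 2 and 3 and KO 3W replicate 2, and A in the other 6 lists, all HFD lists included. Differences between 3W and HFD lists run partly with that letter, and its part was not tested.

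Peaks in some lists but not all were found for 9 members, namely Ccl3, Ccl8, Ccl9, Ccl12, Ccl17, Ccl24, Cxcl9, Cxcl17 and Pf4. Ccl3, Cxcl9 and Ccl24 had one in both WT 12W HFD lists and in no other. In replicates 1 and 2 their −log10 q was 2.74 and 5.58 for Ccl3, 6.61 and 6.30 for Cxcl9 and 15.3 and 2.97 for Ccl24. At a −log10 q of at least 5 only Cxcl9 kept a peak in both lists. The share of all genes with a peak in these lists alone was not counted. Pf4 had one in both 12W HFD lists (−log10 q 2.74 and 4.89) and in 1W HFD replicate 2 (3.55), all below that bar of 5. Ccl8 and Ccl9 had one in 7 lists, missing in 2 of the 3 WT 3W lists, and Ccl8 had it in WT 3W replicate 2 and Ccl9 in replicate 3. The fold enrichment in the authors' list for the strongest Ccl8 peak was 4.75 in that WT 3W list, 6.99 and 8.76 in 1W HFD, 16.4 and 12.2 in 12W HFD, and 7.08 and 4.81 in KO 3W. In 12W HFD replicate 1 the Ccl8 peak ran from 82113825 to 82116529 on chromosome 11 (mm10) and covered the promoter printed above. For Ccl9 it was 3.25 in the WT 3W list, 5.59 and 5.84 in 1W HFD, 9.51 and 11.7 in 12W HFD, and 4.90 and 4.33 in KO 3W. For Cxcl1 it was 30.9 to 66.2 over the 9 lists. Fold values are the authors' and were not compared between lists by a test. Nuclei of macrophages and of the lineage cannot be told apart in these lists. KO cells on high-fat diet were not analysed here by ATAC-seq.

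**Figure D5:**
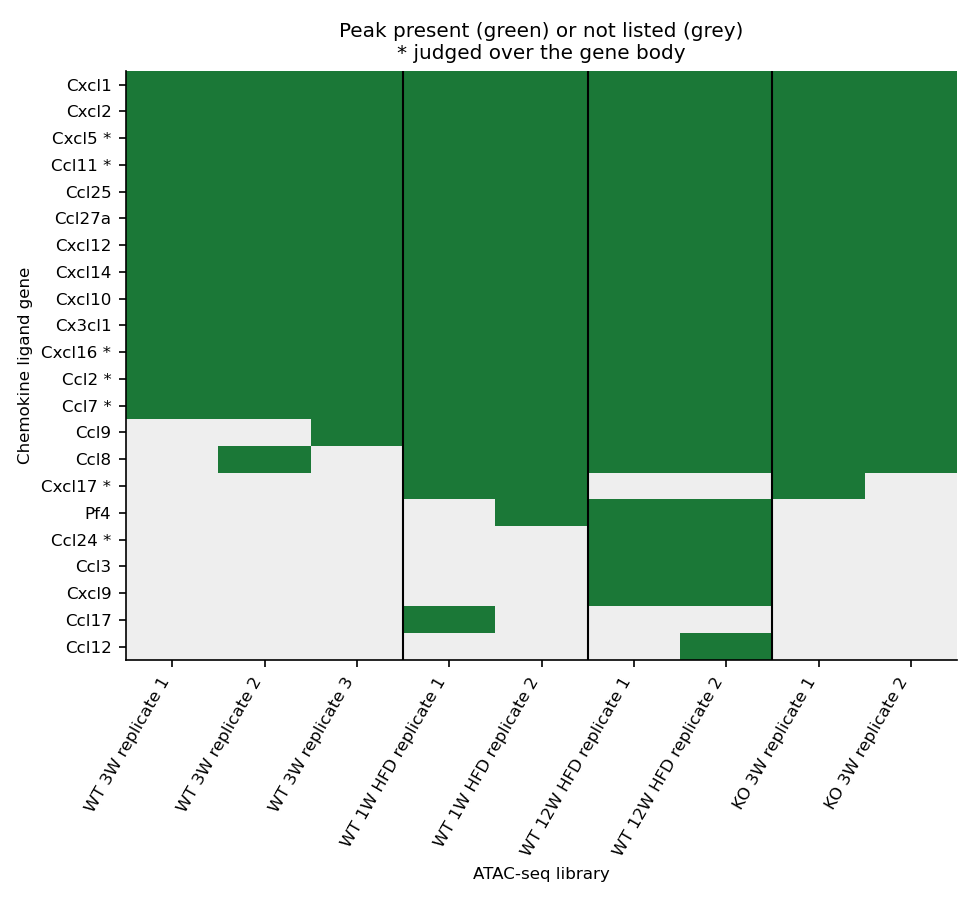
Presence of an ATAC peak at 22 chemokine genes (vertical) in the 9 peak lists (horizontal; WT 3W, 1W HFD and 12W HFD, and KO 3W); green marks a peak and grey none listed, and a star marks genes judged over the gene body. Of these, 13 genes have a peak in all 9 lists, and Ccl3, Cxcl9 and Ccl24 have it in both 12W HFD lists alone. Listed peaks are shown whatever their q, weak ones included.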

How the data were processed

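Expression was deposited by the authors as TPM per gene for 29 RNA libraries, in a WT and a KO table of 25746 genes each. Open chromatin was deposited by the authors as 1 peak list per ATAC library on mm10, with 4 values per peak: a score, the fold enrichment as a ratio, and −log10 p and −log10 q. The submitters' processing notes list MACS2, Bowtie2 2.3, RSEM, STAR 2.5.3a and Trim Galore 0.6. Which step each served, the annotation and the use of strand are not given in the sources used here. RNA was extracted with miRNeasy Micro and amplified with a low-input NEBNext kit, per the labels' protocols.

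TPM holds no read depth, so depth is unknown and intervals for counting error are not given. A value listed at 0 does not show absence. Columns summed to 918008 to 969385 TPM. Testing was limited to the 15659 genes that reached 1 TPM in 2 or more libraries. The model was limma 3.58.1 (R 4.3.3) on log2(TPM + 1), with all 29 libraries and 8 group means (21 residual degrees of freedom, eBayes with trend), two-sided, with Benjamini-Hochberg adjustment over all tested genes and a threshold of 0.05. An error after ± is the SD of TPM values or the SE of a log2 change. The scripts were tested on simulated data.

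Members and gene lists were chosen with earlier results of these data known, so no p-value over a list is given. Library values are printed for members that passed in at least 1 of 12 comparisons or averaged at least 50 TPM in a group. Other pathway genes are named, at most 4 a list, by size of change among those that passed. Alternatives were a pseudocount of 0.1, no filter, rescaling, array weights, only the groups compared, a replicate block and each library left out, and for peaks a window of 250 bases, a stricter q and the summit. Promoters came from RefSeq (GRCm38.p6), with 27 members matched by symbol and place. Protein sequences are not shown. The values of 1 listed receptor are not reported here.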

Additional observations from a re-analysis of the deposited data

Results flagged for a closer look

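In 5 of 101 pairs of a gene and a group of 4 to 10 libraries, 1 library lay far from the rest of its group. Chance alone flags about 1 in 20 such groups. Cxcl9 was at 92.6 TPM in WT 12W HFD replicate 1 and at most 9.05 TPM in the other 4, in the library with the highest interferon response genes. Ccl21a was at 51.5 TPM in KO 3W replicate 1 and at most 1.13 TPM in the other 4, in the library with the highest macrophage markers of its group. Cxcl13 was low in KO 3W replicate 4, at 2.42 TPM, where the next value was 11.5 TPM. Ccl17 was at 0.47 TPM in WT 3W replicate 5 and at 0.27 TPM in KO 3W replicate 4, each beside 0 in the rest of its group.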

How the results depend on the processing

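No call of a member changed direction under the alternatives run, and direction was followed for these calls only. Of 1160 values of the called members under alternatives, 998 stayed under the threshold and 162 did not. Of 70 calls of members, 34 held in every fit. The 70 include the calls of Ccl22, which met the level filter only through the WT 12W HFD libraries, and the 34 include its call against 3W. Counts of called members moved as follows, with KO 1W HFD against 3W (1 called) and KO 12W against 1W HFD (2 called) the least stable. With a pseudocount of 0.1 they were 0 and 1, with no filter on low values 0 and 1, with array weights 6 and 4, and with the replicate block 0 and 1. The second was 0 with only the groups compared. With no filter, WT 1W HFD against 3W had 6 calls in place of 11, and with array weights WT 12W against 1W HFD had 14 in place of 9. With the replicate block KO against WT at 12W HFD had 1 in place of 0. That was Ccl22, lower in KO, which met the level filter only through the WT 12W HFD libraries, so it is given as a description. For KO against WT the block joined 3W libraries by pair and HFD libraries by replicate number. In the other comparisons it joined libraries of all groups that had the same replicate number. The titles pair 3W libraries only.

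With single libraries left out, the counts ran from 15 to 19 for WT 12W HFD against 3W, from 8 to 16 for WT 6M against 3W, from 6 to 13 for WT 1W HFD against 3W and from 6 to 12 for WT 12W against 1W HFD. They ran from 4 to 14 for KO 12W HFD against 3W, from 0 to 5 for KO 1W HFD against 3W (0 without KO 3W replicate 2 or 3, 3 without KO 1W HFD replicate 1, 5 without KO 3W replicate 1) and from 0 to 2 for KO 12W against 1W HFD. They ran from 0 to 1 for KO against WT at 12W HFD, for WT 3W against P12 (1 without WT P12 replicate 1) and for WT 12W HFD against 6M (1 without either 6M library), and stayed at 0 for KO against WT at 3W and 1W HFD. Where 1 library of a group was left, it was assumed to vary like the other groups. The cause of these moves was not tested. Counts of members with an ATAC peak stayed within 1.5 times under every setting.

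What the KO and WT libraries paired by title share is not stated. Of 6 same-pair correlations of deviations from group means 5 were above 0.1 (lowest -0.131, highest 0.482), so not every pair met the bar of 0.1 and no pairing was assumed. All 5 KO libraries, and 5 of 6 paired WT libraries, correlated best with their own pair, a hint from the data. With the replicate block 0 members were called for KO against WT at 3W, as without it. Read depth is unknown, which limits every statement on genes listed near 0.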
